A study of Mus musculus with 2 samples.

Results

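De novo lipogenesis, the making of fatty acids from carbohydrate, was followed in RNA-Seq data of brown preadipocytes (D0) and differentiated brown adipocytes (D7), through 10 genes, namely Acly, Acaca, Acacb, Fasn, Scd1, Scd2, Me1, Thrsp, Mlxipl and Srebf1. Each was found by its symbol, in 1 row, among the 23359 gene symbols with values in both libraries. They were chosen by their role in the pathway and by the ratio of D7 to D0 FPKM, since Thrsp and Scd1 are among the strongest increases, so these ratios are a description and not a test. With 1 library per stage, 2 in all, the spread between cultures is unknown and no test was possible.

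Both libraries came from interscapular brown adipose tissue of newborn C57BL/6 mice. The cells were grown in 20% serum. The D0 library was made from preadipocytes in culture, and the D7 library from adipocytes at day 7 of differentiation. Per the labels, cells of both stages were plated 4 days ahead of induction in medium with 10% serum, insulin at 0.1 μM and T3, the active thyroid hormone, at 1 nM. IBMX at 0.5 mM, dexamethasone at 2 μg/ml and indomethacin at 0.125 mM were added at day 0 for 2 days, and insulin and T3 alone followed. By this account the D0 cells had also met insulin and T3. The methods of the paper name the substrain C57BL/6J and describe another course, with less serum during growth, with insulin and T3 from day 0 on, with other insulin and dexamethasone concentrations, and with cells immortalized by large T, which the labels do not name. These methods name newborn pups of either sex and do not state whether their cells were pooled.

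In this pathway, citrate that leaves the mitochondrion is split by ATP citrate lyase (Acly) into acetyl-CoA in the cytosol. Acetyl-CoA carboxylases (Acaca and Acacb) make malonyl-CoA from it, fatty acid synthase (Fasn) builds palmitate with NADPH, part of which is supplied by malic enzyme (Me1), and stearoyl-CoA desaturases (Scd1 and Scd2) put a double bond into the product. Thrsp, a small nuclear and cytosolic protein named for its response to thyroid hormone, and the transcription factors encoded by Mlxipl (ChREBP, which responds to glucose metabolites) and Srebf1 (SREBP-1, which responds to insulin) act upstream of these enzymes. Brown fat is known for a high rate of this synthesis, and its lipid droplets feed heat production.

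Levels are FPKM values, fragment numbers scaled for transcript length and for sequencing depth, as deposited and without rescaling, so genes can be compared per length. A gene was called higher or lower at D7 when the ratio of the FPKM values was at least 2.0 or at most 0.5, the threshold of the study. The numbers of fragments behind the values were recovered through genes with a single exon, and the totals behind them amount to 21471198 fragments in all at D0 and 18265144 at D7. Ratios and shares are followed by their exact 95% interval (Clopper-Pearson) from these fragments. It holds the error of counting and nothing else, so it sets 1 library against another rather than the stages.

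The label of the cells was checked against marker genes. Of 8 adipocyte markers, 7 were above 0 in both libraries and all 7 were higher at D7. Their summed FPKM was 81.9 at D0 and 18297 at D7, most of it from Fabp4 with 14391. Of 6 preadipocyte markers, Pdgfrb, Thy1 and Col1a1 were lower at D7 and Cd34 was higher, while Pdgfra stayed at a ratio of 0.973. Brown markers were present at D7 at a low level, with 24.4 for Cidea and 4.57 for Ucp1, the uncoupling protein of heat production, both of which were listed at 0 at D0. Macrophage markers moved with the stage as well: 9 of 10 were higher at D7, and their sum went from 146 to 518, led by Lyz2 with 286 at D7. Cd14 was the exception, at a ratio of 1.06. Their part in the results below was not tested. Liver also makes fatty acids, but Alb, Ttr and Tat, defining genes of hepatocytes, were listed at 0 in both libraries. Of the other hepatocyte markers, Cyp2e1 had 46.2 at D7 and was listed at 0 at D0, and Apoa1 and Cps1 had about 3 fragments or fewer. Muscle markers moved the other way, from a sum of 51.7 at D0 to 4.88 at D7, mostly through Acta1, an actin of skeletal muscle, which went from 45.4 to 1.73. Tnnt3 was lower as well, and the part of these transcripts in the results was not tested. Endothelial markers summed to 1.62 at D0 and 2.69 at D7, and erythroid markers to 0.0265 and 0.0312. Tie1, Myod1, Ckm, Hba-a1 and Hbb-b1 were listed at 0 in both libraries. In such bulk samples, a larger share of lipogenic cells and more RNA per cell cannot be told apart.

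Promoters of regulators and of the synthase are shown for reference, and no link between their motifs and the ratios was tested. The sequences are 250 bases that precede a start site annotated by RefSeq (build GRCm38.p6), read 5′ to 3′ on the strand of the gene, and capitals mark matches of either strand to the motifs searched. A table of promoters held 8 of the 10 genes. The motifs were the E box (CACGTG), the carbohydrate response element bound by ChREBP (CACGNG and CNCGNG with 5 bases between them, which can contain an E box), the sterol response element bound by SREBP (TCACNCCAC), the CCAAT box (CCAAT) bound by NF-Y, the GC box (GGGCGG) bound by Sp1 and related factors, and the repeats DR1 and DR4 bound by nuclear receptors (AGGTCA repeated in the same direction with 1 or 4 bases between the copies).
Thrsp, chromosome 7, 97417551 to 97417800, minus strand: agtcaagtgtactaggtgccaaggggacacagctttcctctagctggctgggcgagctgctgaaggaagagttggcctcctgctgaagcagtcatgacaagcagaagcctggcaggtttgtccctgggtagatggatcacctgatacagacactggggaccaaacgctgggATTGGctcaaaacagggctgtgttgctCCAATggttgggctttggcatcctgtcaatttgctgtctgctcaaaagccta
Fasn, chromosome 11, 120824548 to 120824797, minus strand: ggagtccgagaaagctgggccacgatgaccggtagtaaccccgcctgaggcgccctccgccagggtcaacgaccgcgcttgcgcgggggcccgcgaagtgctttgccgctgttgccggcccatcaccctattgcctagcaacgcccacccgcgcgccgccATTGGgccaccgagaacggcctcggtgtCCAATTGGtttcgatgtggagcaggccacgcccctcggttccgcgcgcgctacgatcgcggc
Mlxipl, start site nearest to the deposited locus, chromosome 5, 135106641 to 135106890, plus strand: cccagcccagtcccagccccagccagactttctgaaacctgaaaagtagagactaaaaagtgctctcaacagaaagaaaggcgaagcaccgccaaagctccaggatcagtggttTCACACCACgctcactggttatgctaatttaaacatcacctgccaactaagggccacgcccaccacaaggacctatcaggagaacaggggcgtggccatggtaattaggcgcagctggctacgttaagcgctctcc
Mlxipl, upstream start site, chromosome 5, 135089640 to 135089889, plus strand: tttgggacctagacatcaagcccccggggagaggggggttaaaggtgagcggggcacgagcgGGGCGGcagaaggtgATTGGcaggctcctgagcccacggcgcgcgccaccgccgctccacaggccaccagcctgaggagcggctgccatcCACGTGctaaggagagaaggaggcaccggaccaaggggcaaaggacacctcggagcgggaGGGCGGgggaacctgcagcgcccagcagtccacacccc
Srebf1, start site nearest to the deposited locus, chromosome 11, 60220628 to 60220877, minus strand: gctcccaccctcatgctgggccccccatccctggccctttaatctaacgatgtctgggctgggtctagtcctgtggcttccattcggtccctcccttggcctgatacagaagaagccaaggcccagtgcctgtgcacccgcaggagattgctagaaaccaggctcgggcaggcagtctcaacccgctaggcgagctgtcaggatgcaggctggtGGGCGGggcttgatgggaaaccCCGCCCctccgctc

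The Thrsp promoter held 2 CCAAT boxes, the nearer one at bases -52 to -48 from the start site. The Fasn promoter held 3, of which a pair overlaps, since CCAATTGG reads as the box on both strands. For the start site nearest to the deposited locus, CCAAT boxes were found in 3 of 8 genes (Acacb, Fasn and Thrsp) and in 33.8% of all 32851 promoters of this length. GC boxes were found in Acly, Me1 and Srebf1, and in 32.7% of all promoters. The sterol response element was matched in Mlxipl alone of the 8 genes, at bases -136 to -128 from its downstream start site, and in 1.05% of all promoters. An E box was matched at the upstream start of Mlxipl, at bases -98 to -93, and in 6.02% of all promoters. No window near a deposited locus held an E box, a carbohydrate response element, DR1 or DR4, which 6.02%, 0.280%, 0.0335% and 0.0152% of all promoters hold. At start sites farther from the deposited locus, CCAAT boxes were also matched in Me1, Mlxipl and Srebf1, and GC boxes in Mlxipl and Srebf1. Some of these windows lie inside the annotated gene. The Acaca window precedes base 84195438, while the gene begins at 84129672, and the Acacb window precedes 114165518, while the gene begins at 114146535. Sequence before these gene starts was not searched. For Me1 the nearest start site was 5339 bases from the start of the deposited locus. These are matches of letters, and sites outside the 250 bases were not searched.

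**Figure D1:**
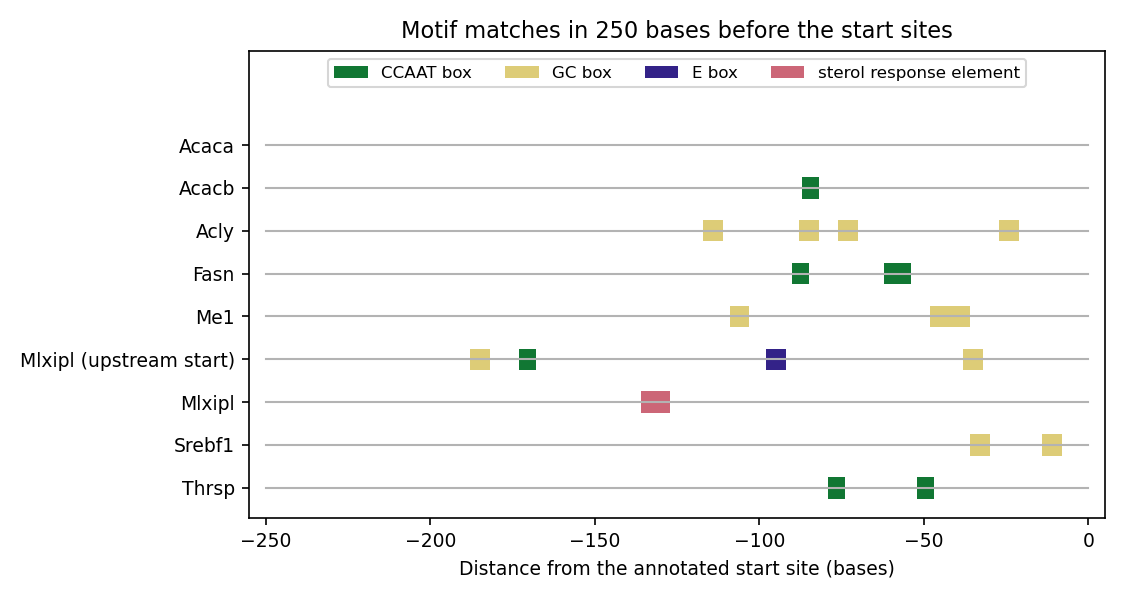
Matches of 4 motifs (coloured boxes) in the 250 bases before the start site nearest to the deposited locus of 8 lipogenic genes, and before the upstream start of Mlxipl, with the distance from the start site in bases on the x axis. Among these windows, CCAAT boxes lie in Acacb, Fasn and Thrsp and before the upstream start of Mlxipl, and GC boxes in Acly, Me1, Srebf1 and before that same upstream start. The Acaca window, which lies inside the annotated gene, holds no match.

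All 10 genes were higher at D7 than at D0 by at least 2.0-fold, and none was lower. Of 14984 genes above 0 in both libraries, 18.5% were higher and 13.2% were lower by the same rule, and of 11966 genes with an FPKM of at least 1 in at least 1 library, 15.6% and 12% were. The median log2 ratio of the 10 genes was 5.10, a ratio of 34.4, beside 0.02 over all genes. A ratio of at least 10 was reached by 8 of the 10, and by 3.14% of all genes, or 3.13% of those 11966. Since the genes were partly chosen for this contrast, nothing is read from these counts. Under the setting that moved the whole table most, in which 0.01 was the lowest value allowed and the libraries were scaled to their medians, the median over all genes shifted to -0.35 and the split of called genes went from 2765 higher and 1980 lower (58.3% higher) to 2835 and 3832 (42.5% higher). The paper reports numbers of higher and lower genes that nearly equal this last split. Under the same setting the median of the 10 genes was 4.75, and 9 of them were higher, with Scd2 at a ratio of 1.86.

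Together the 10 genes took 0.120% of the summed FPKM at D0 and 4.01% at D7. At D0 none was among the 100 genes with the highest FPKM. At D7 there were 5 among the 100 and 2, Scd1 and Thrsp, among the 10 highest. At D0 the highest of the 10 was Scd2 with 281, and at D7 it was Scd1, which alone made up 51.5% of their sum.

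**Figure D2:**
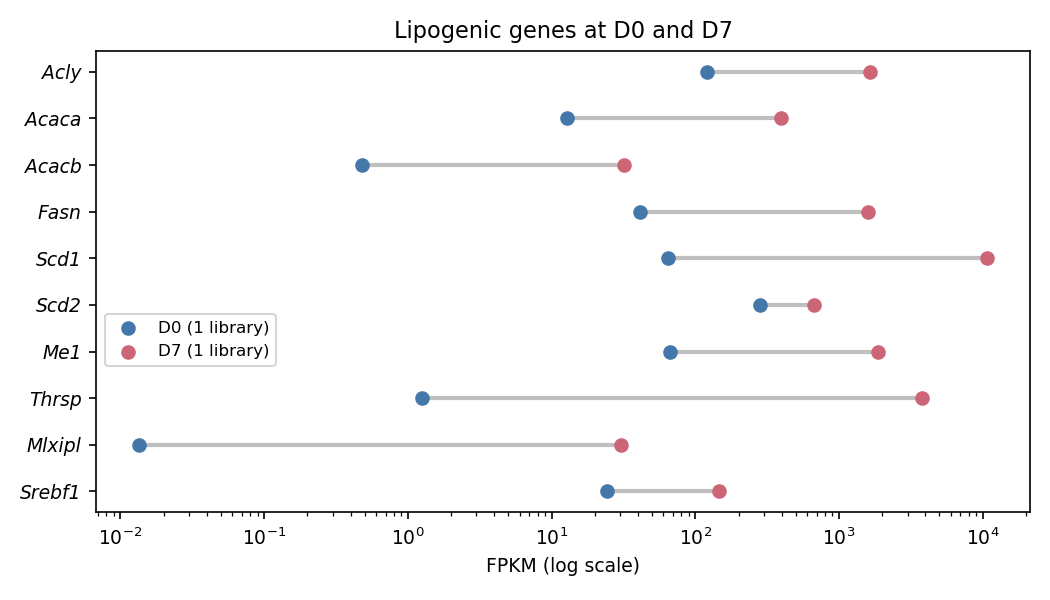
FPKM (x axis, log scale) of the 10 lipogenic genes in the D0 library (blue) and the D7 library (red), with a grey line joining the values of a gene. Every red point lies to the right of its blue point, with the shortest line for Scd2 (281 to 668) and the longest for Mlxipl (0.0134 to 30.5) and Thrsp (1.25 to 3763).

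Positions below are those of GENCODE M21 on build mm10. Acly (ENSMUSG00000020917.17, chromosome 11, 100476353 to 100528000, minus strand), which makes the acetyl-CoA of the cytosol, went from an FPKM of 121 in the D0 library to 1644 in the D7 library. The ratio was 13.6 (95% interval 13.4 to 13.9). Its place among all genes went from 651 to 21. It was thus already an abundant transcript at D0, and only Scd2 and Srebf1 showed smaller ratios.

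Acaca (ENSMUSG00000020532.18, chromosome 11, 84129672 to 84401651, plus strand) encodes the carboxylase of the cytosol that feeds fatty acid synthesis. Its FPKM went from 12.9 to 394, by a ratio of 30.6 (29.4 to 31.9). Acacb (ENSMUSG00000042010.16, chromosome 5, 114146535 to 114250761, plus strand) encodes the carboxylase at the outer mitochondrial membrane, whose malonyl-CoA restrains the entry of fatty acids into mitochondria. Its FPKM went from 0.477, which rests on about 85 fragments, to 32.2, by a ratio of 67.5 (54.4 to 84.6), which was 22.5 with 1 added to each FPKM. Acaca stayed the main form in both libraries. The share of Acacb in the sum of both was 3.58% at D0 (2.87 to 4.40) and 7.55% at D7 (7.35 to 7.76), and these intervals do not overlap. With 1 added to each FPKM the D0 share was 9.63%, and the order of the stages turned. No window of 90 bases, the read length, in either carboxylase transcript came within 5 mismatches of the other, the number that the alignment allowed.

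Fasn (ENSMUSG00000025153.9, chromosome 11, 120805846 to 120824547, minus strand) encodes the enzyme that builds palmitate. It went from an FPKM of 41.2 to 1592, by a ratio of 38.6 (37.8 to 39.5). At D7 it held place 24 among all genes and lay next to Acly in level. Per length, Acly stood at 2.93 times Fasn at D0 and was about level with it at D7 (1644 beside 1592), while Fasn stood at 3.20 times Acaca at D0 and 4.04 times at D7. Such ratios within a library do not depend on the scaling between libraries. The change of the level ratio of Acly to Fasn was 0.352-fold (95% interval from counting error 0.342 to 0.363), and that of Fasn to Acaca 1.26-fold (1.21 to 1.32).

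Me1 (ENSMUSG00000032418.15, chromosome 9, 86581371 to 86695953, minus strand), which yields NADPH from malate in the cytosol, went from an FPKM of 66.2 to 1881, by a ratio of 28.4 (27.6 to 29.3). At D7 it was at place 13 and above Fasn in level. The malic enzymes of mitochondria were far lower. Me2 had 15.1 at D0 and 15.2 at D7, and Me3 0.133 and 0.980. Me1 made up 81.3% of the sum of the 3 at D0 and 99.1% at D7.

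Scd1 (ENSMUSG00000037071.3, chromosome 19, 44394455 to 44407879, minus strand), the main desaturase of adipose tissue and liver, went from an FPKM of 64.9 to 10775. The ratio was 166 (162 to 170), and 2.06% of the summed FPKM of the D7 library came from this gene, which held place 2 there. Scd2 (ENSMUSG00000025203.6, chromosome 19, 44293674 to 44306864, plus strand), the form best known from brain and from developing tissue, had 281 FPKM in the D0 library and 668 in the D7 library. The ratio of 2.37 (2.34 to 2.41) was the smallest of the 10 genes, and it was 1.86 after the scaling to library medians described above, the only setting in which a gene of the 10 did not reach 2.0-fold. The order of both genes turned between the stages. Scd1 made up 18.7% of their sum at D0 (18.3 to 19.1) and 94.2% at D7 (94.1 to 94.2).

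Scd1 and Scd2 lie in a cluster on chromosome 19 with Scd3 (44203269 to 44244016) and Scd4 (44333092 to 44346743). Scd3 was measured from about 2 fragments at D0, an FPKM of 0.0283, and had 47.7 at D7. Scd4 had 0.113 and 0.322. Neighbours in the cluster thus differed by orders of magnitude at D7. These genes share sequence, and a stretch of their coding part is shown that has the length of 1 read. Taken alone, a read of this stretch cannot be assigned to 1 gene among Scd1, Scd2 and Scd3. Capitals mark the bases in which Scd4 differs from the others.
Scd1, Scd2 and Scd3, bases 523 to 612 of the coding part of Scd1: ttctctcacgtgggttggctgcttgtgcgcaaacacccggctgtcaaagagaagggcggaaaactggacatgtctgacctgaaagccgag
Scd4, the matching bases: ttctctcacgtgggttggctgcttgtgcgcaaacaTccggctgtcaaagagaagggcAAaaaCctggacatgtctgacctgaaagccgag

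This stretch was identical in Scd1, Scd2 and Scd3 and differed from Scd4 in 4 bases. In GENCODE transcripts, 10.0% of the windows of 90 bases of Scd1 came within 5 mismatches of Scd2, and 8.87% of those of Scd2 came within 5 mismatches of Scd1. For Scd3 the share of windows this close to Scd1 was 15.9%. How the counting split such reads was not stated in the sources used here, so the values of Scd2 and Scd3 beside the high Scd1 are uncertain. At D7 Scd1 rests on about 915186 fragments and Scd2 on about 64295. The ratio of Scd2 and its share beside Scd1 carry this uncertainty, which their intervals do not hold. The part of shared reads in these values was not tested.

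**Figure D3:**
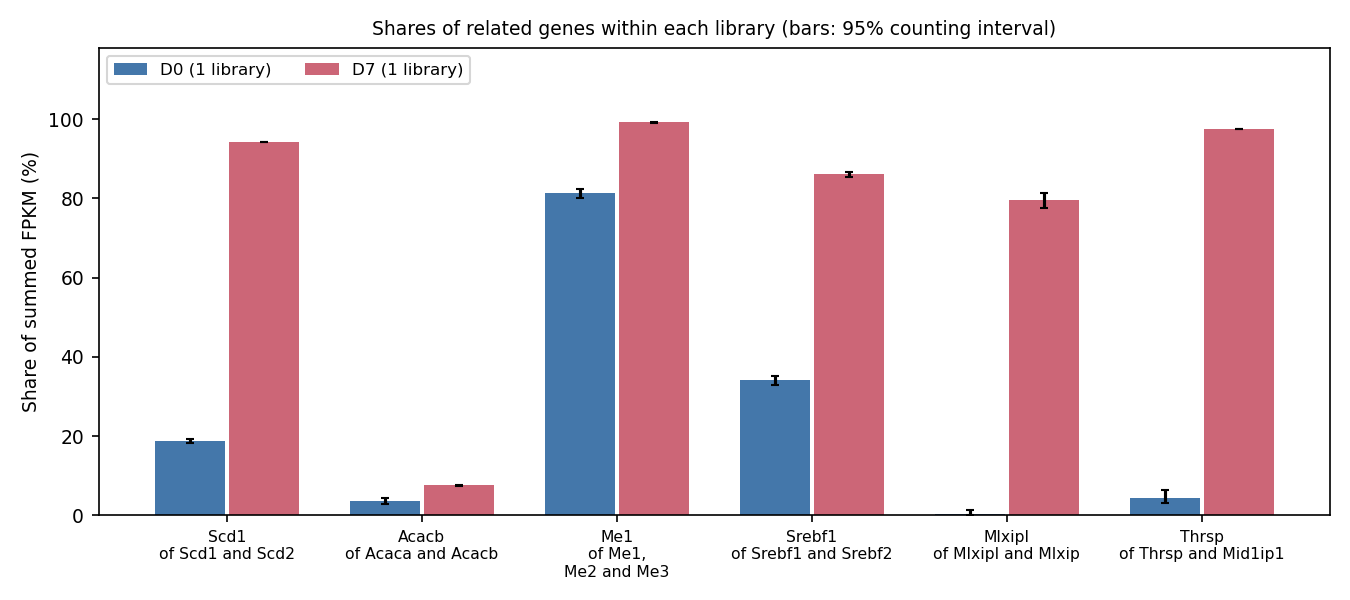
Share of 1 gene in the summed FPKM of related genes (y axis, %) in the D0 library (blue) and the D7 library (red), with exact 95% intervals from counting as black bars. The share of Scd1 beside Scd2 is 18.7% at D0 and 94.2% at D7, and that of Acacb beside Acaca stays under 10% in both.

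Thrsp (ENSMUSG00000035686.8, chromosome 7, 97412938 to 97417730, minus strand), which is known to bind acetyl-CoA carboxylase complexes and to favour lipogenesis, went from an FPKM of 1.25, which rests on about 29 fragments, to 3763. The ratio was 3017 (2130 to 4568), the largest of the 10 genes. With 1 added to each FPKM it was 1675. Among the 14984 genes above 0 in both libraries the ratio of 3017 held place 7, with Plin1 (5848) and Adipoq (4263) among those above it. It was the largest of the 10772 genes with an FPKM of at least 1 in both libraries, a cut that Thrsp passed narrowly at D0. Its paralog Mid1ip1, which promotes the assembly of the carboxylase into filaments, went from 26.4 to 94.9, by a ratio of 3.59 (3.35 to 3.86). Thrsp thus stood below Mid1ip1 at D0, with 4.50% of their sum (3.01 to 6.30), and far above it at D7, with 97.5% (97.5 to 97.6).

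Mlxipl (ENSMUSG00000005373.13, chromosome 5, 135089890 to 135138382, plus strand), the gene of ChREBP, went from an FPKM of 0.0134, about 1 fragment, to 30.5, about 1919 fragments. The ratio of 2275 has an interval from 405 to 89224, because the D0 value lies below the limit of 3 fragments, an FPKM of 0.0406. Against that limit the ratio was 753, and with 0.1 or 1 added to each FPKM it was 270 or 31.1. Its size is thus not fixed by these data, while the D7 value is limited little by counting but comes from 1 library. Mlxip, the related gene of the MondoA protein, had 5.66 at D0 and 7.89 at D7. Mlxipl made up 0.237% of the sum of both at D0 (0.00604 to 1.33) and 79.5% at D7 (77.6 to 81.3). The deposited locus of Mlxipl starts at the downstream start site printed above, 17001 bases from the upstream start. The table gives 1 value per gene, so the forms of ChREBP that begin at either start cannot be told apart.

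Srebf1 (ENSMUSG00000020538.15, chromosome 11, 60199089 to 60222581, minus strand) went from an FPKM of 24.2 to 146, by a ratio of 6.04 (5.77 to 6.33). Among the 3 regulators it had the highest level at D0 and the smallest ratio. Srebf2, which is best known for the control of cholesterol synthesis, went the other way, from 46.7 to 23.7, a ratio of 0.507 (0.481 to 0.534) that did not reach 0.5. Srebf1 made up 34.1% of the sum of both at D0 (33.0 to 35.3) and 86.0% at D7 (85.5 to 86.6). The deposited locus of Srebf1 begins 23 bases from 1 of its 3 annotated start sites. It runs on over Rai1, which lies on the opposite strand, and over 4930412M03Rik, which lies on the same strand. The methods of the paper describe enzymatic removal of second-strand cDNA, but whether strand was used in counting is not given in the sources used here. Antisense genes also lie in the deposited loci of Acacb, Me1 and Mlxipl. Genes of the same strand lie in those of Acly (Mir7116), Scd2 (Mir5114) and Me1 (Gm38230 and Gm25949). Gm11437 and Gm37391 overlap the annotated Acaca but lie outside its deposited locus. The part of neighbours within the deposited loci in these values was not tested. The forms of Srebf1, which differ in their start, share 1 value.

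**Figure D4:**
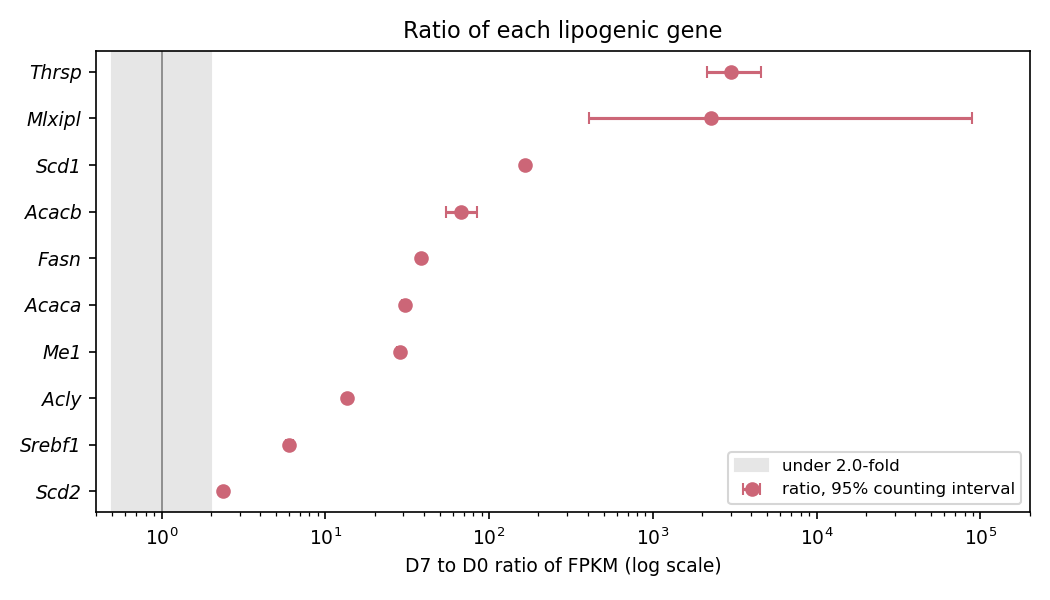
Ratio of the D7 to the D0 FPKM (x axis, log scale) of each lipogenic gene, with exact 95% intervals from counting as bars and the range under 2.0-fold in grey. Scd2 (2.37), Srebf1 (6.04) and Acly (13.6) have the smallest ratios, and Mlxipl has by far the widest interval (405 to 89224).

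By level and change in the 2 libraries, the genes most like Scd1 were Fabp4 (20.3 at D0 and 14391 at D7), Me1 and Lpl (47.5 and 1618), at distances of 1.73, 2.52 and 2.77 on the log2 scale. The nearest to Thrsp were Hp (7.19 and 3115), Gpd1 (0.322 and 761) and Cd36 (0.665 and 478), at 2.54, 3.02 and 3.11. The nearest to Scd2 were Uqcrh, Atp5g3 and Mt1, all within 0.19. With 2 libraries, this likeness rests on 2 values per gene.

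A list of 76 other genes of the pathway in 10 role groups was drawn up by known function. Values were found for 75. Of the 71 above 0 in both libraries, 33 were higher at D7 and 1 was lower, with a median log2 ratio of 0.91, beside 18.5% higher, 13.2% lower and a median of 0.02 over all genes. The groups differed much in their medians, and the highest was that of the supply of citrate and acetyl-CoA. All 5 of its genes were higher. Slc25a1, the carrier that brings citrate out of mitochondria, went from 93.4 to 840 (ratio interval 8.66 to 9.35). Pcx, pyruvate carboxylase, had 9.86 and 842, a ratio of 85.4, and Acss2, which makes acetyl-CoA from acetate, had 13.2 and 437, a ratio of 33.1. The smallest ratio was that of Cs, citrate synthase, with 4.91.

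Among other sources of NADPH, 4 of 7 genes were higher. G6pdx, which opens the pentose phosphate pathway, went from 29.7 to 223, by a ratio of 7.51. Pgd, the next dehydrogenase of that pathway, had the highest level at D7, 325, and a ratio of 3.22, while Pgls, the lactonase between them, stayed at 1.05 (0.972 to 1.13). Idh1 had a ratio of 2.29. At D7 Me1 thus exceeded G6pdx, Pgd and Idh1 in level, though Pgd and Idh1 exceeded it at D0.

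Of 6 genes that modify these enzymes or bring electrons to the desaturase, 3 were higher. Cyb5a, the cytochrome that donates electrons to the desaturase, went from 140 to 535, by a ratio of 3.82, and Cyb5r3, its reductase, 1.38. Aasdhppt, which fits fatty acid synthase with its prosthetic group, stayed at 1.10 (0.965 to 1.25), and Hlcs, which attaches biotin to the carboxylases, at 1.69. The ratios of Aasdhppt and Hlcs stand beside those of the enzymes they serve, 38.6 for Fasn, 30.6 for Acaca and 67.5 for Acacb. The ratios of Cyb5a and Cyb5r3 stand beside 166 for Scd1 and 2.37 for Scd2.

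Of 7 genes that remove malonyl-CoA or encode AMPK, the kinase that inhibits the carboxylases, 2 were higher. With 18.5% higher over all genes, this count is no result about the group. Mlycd, malonyl-CoA decarboxylase, had 4.70 and 25.5, a ratio of 5.43, and Prkaa2, a catalytic subunit of AMPK, 0.238 and 3.90, a ratio of 16.4. Prkaa1, the other catalytic subunit, had 12.6 and 15.9. The subunit with the highest level, Prkag1, had 43.1 and 49.5, and Prkab1 had the smallest ratio, 0.984.

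Of 19 genes of elongation and of other desaturases, 17 were above 0 in both libraries and 7 were higher, beside 18.5% over all genes. Their median log2 ratio was 0.49. Scd3 and Scd4 are among the 7. They rest on about 2 and about 8 fragments at D0 and share sequence with Scd1, and the part of shared reads was not tested. Elovl6, which lengthens palmitate to stearate, went from 6.75 to 18.2, by a ratio of 2.70, far below the ratio of Scd1, which acts on its product. Hsd17b12 and Tecr, which serve all elongases, had ratios of 3.58 and 2.35. Elovl3, a fatty acid elongase, was listed at 0 at D0, where 3 fragments would give 0.0821, and had 34.2 at D7. The desaturases of polyunsaturated fatty acids did not reach 2.0-fold, with 1.23 for Fads1 and 1.40 for Fads2. Elovl1 had the smallest ratio of the group, 0.701.

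Among regulators, 1 of 6 genes of SREBP processing was higher, and so was 1 of the 6 partners and targets of ChREBP above 0 in both libraries. These shares are near the 18.5% over all genes and are no result about either group. Insig1, which holds SREBP in the endoplasmic reticulum and is itself a target of SREBP, had 62.2 and 243, a ratio of 3.91, while Scap, the escort of SREBP, had 31.1 and 18.9, a ratio of 0.607. In the ChREBP group the higher gene was Txnip, with 111 and 352. Mlx, with which ChREBP pairs on DNA, had 19.7 and 33.5, a ratio of 1.71. Arrdc4, a target shared with MondoA, stayed at 0.908 (0.824 to 1.00), and Pklr, a ChREBP target of liver, had about 1 fragment at D7. Of 7 nuclear receptors, Nr1h3 (LXRα, known to act on Srebf1) had 2.53 and 33.6, a ratio of 13.3, and Thrb, a receptor of thyroid hormone, 0.376 and 6.74, a ratio of 17.9. Thra, the other receptor of thyroid hormone, was above Thrb in both libraries, with 27.5 at D0 and a ratio of 1.31 (1.21 to 1.42), and Nr1h2 (LXRβ) had the smallest ratio, 1.06.

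Of 5 genes of glucose uptake and phosphorylation, 3 were higher and 1 was lower. Slc2a4, the transporter that responds to insulin, went from 0.722 to 154, by a ratio of 213 (155 to 307). Slc2a1, the widely expressed transporter, had 50.4 and 24.5, a ratio of 0.485 (0.456 to 0.517). Hk2, the hexokinase known to respond to insulin, went from 8.59 to 29.8, by a ratio of 3.47 (3.23 to 3.74), and Hk1, the widely expressed form, from 35.4 to 19.2. Of the genes of mitochondrial fatty acid synthesis, a separate pathway that makes octanoate for lipoic acid, 5 of the 6 with values were higher, up to 5.61 for Mecr, and Mcat did not reach 2.0-fold with 1.93. Ndufab1, the acyl carrier protein of mitochondria, had the highest level, 249 at D7.

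Beside neighbouring parts of lipid metabolism, the 10 genes had the largest median. Triglyceride synthesis had a median log2 ratio of 3.67, with 10 of 15 genes higher and 1 lower, from Mogat2 with 0.0634 to Gpd1 with 2365. Fatty acid oxidation had a median of 2.48, with 17 of 19 higher, from Cpt1a with 0.634 to Cpt1b with 27.7. Cholesterol synthesis, which uses the same acetyl-CoA, had a median of -0.15, with 6 of 21 higher and 5 lower, and with a ratio of 4.14 for Pmvk, the highest of the list. Over all genes, 18.5% were higher and 13.2% lower. No difference between these lists was tested, and the 10 genes were chosen with their increase known.

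**Figure D5:**
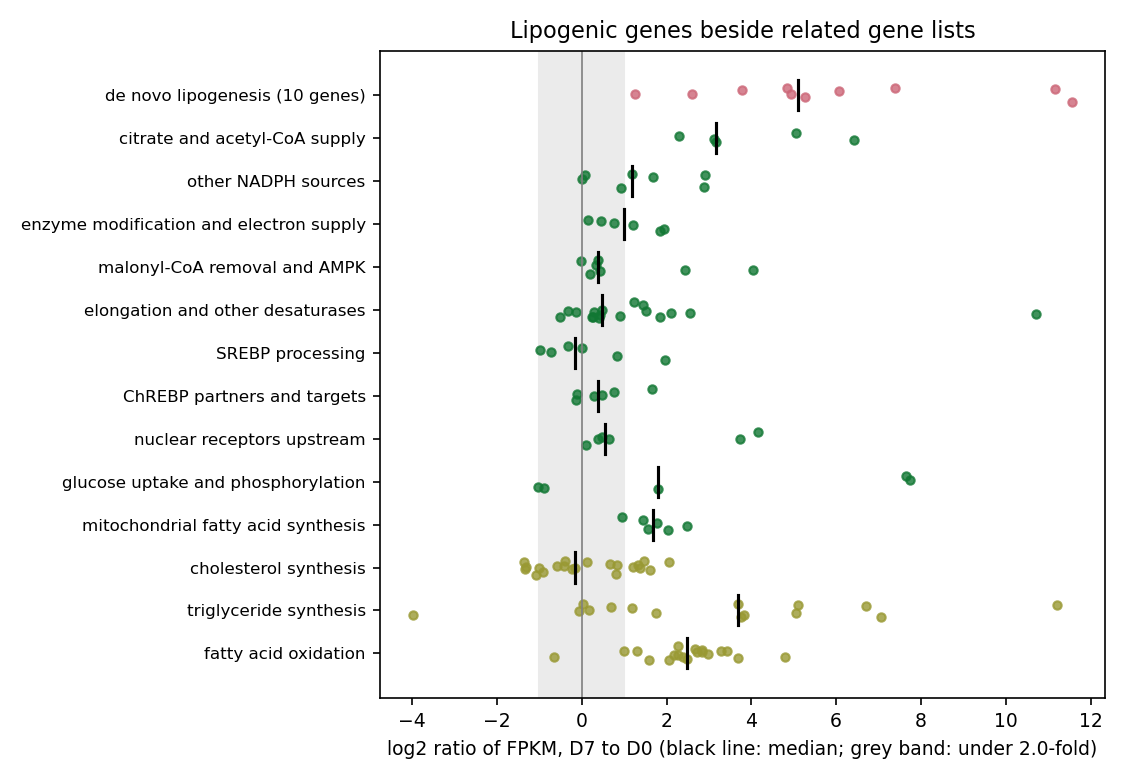
Log2 ratios of FPKM, D7 to D0 (x axis), of the 10 lipogenic genes (red), of role groups of the same pathway (green) and of other lipid lists (olive), with a point per gene above 0 in both libraries, a black line at the median and a grey band under 2.0-fold. The medians run from 5.10 for the 10 genes to -0.15 for cholesterol synthesis and -0.17 for SREBP processing.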

How the data were processed

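A single library was sequenced for each stage, D0 (preadipocytes) and D7 (adipocytes). Per the methods, the authors removed duplicate and rRNA reads and used SOAP2 for alignment to the mouse genome, with up to 5 mismatches. The submitters' processing notes name Bowtie2 and mm10 instead of SOAP2. The deposited unit is FPKM, with a value for each gene in each library. Removal of duplicates can lower very abundant transcripts such as Scd1, to an extent not tested. Of 27324 rows, 23361 held values, and 0 columns of values were left unmatched. Where a symbol had several rows, the row with the highest mean was used. Hsd17b8 was the 1 listed gene not found.

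Fragments were recovered from single-exon genes of at least 600 bp, with 179 bp taken from the length at D0 and 182 bp at D7, which made 100% of 81 and 89 values of up to 20 fragments whole within 0.1. For other genes the length of the named transcript, or of the longest coding transcript, was used, so their fragments are approximate. Genes, loci and transcripts were taken from GENCODE M21, and 10 listed genes were matched by an older symbol in the RefSeq table. The scripts were tested on simulated data.

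The 10 genes, the gene lists and the alternatives were chosen with earlier results of these data known. The alternatives were pseudocounts of 0.1 and 1, TPM, the median ratio, the upper quartile, a floor of 0.01 with the library median, summing of rows, a threshold of 4.0 and a filter at an FPKM of 1. All 10 genes are named, and of each role group the gene with the highest D7 FPKM or with the highest or lowest ratio, and others of the list by their role. Some genes that this rule would name are not reported here. Nearest genes were the 3 at the smallest distance in log2 FPKM. Values were computed in Python 3.11.15 with pandas 2.3.3 and numpy 2.4.6, intervals with scipy 1.17.1, and plots with matplotlib 3.10.9.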

Additional observations from a re-analysis of the deposited data

How the results depend on the processing

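The count of 10 higher and 0 lower genes held with pseudocounts of 0.1 and 1, TPM, the median ratio, the upper quartile, summed rows and the filter at an FPKM of 1. Summed rows and the filter could not change it, since each gene had 1 row and a D7 FPKM of at least 30.5. TPM, the median ratio and the upper quartile scale all genes alike, and the lowest ratio of Scd2 among them was 2.33. The count was 9 higher with the floor of 0.01 and the library median, the setting nearest to the counts of the paper. It was also 9 at a threshold of 4.0, without Scd2 in both. The median log2 ratio of 5.10 was 4.82 with a pseudocount of 1 and 4.75 with the floor and the library median. Setting Mlxipl to its limit of 3 fragments, an alternative chosen after seeing the data, left the median at 5.10. This alternative could not move it, since Mlxipl, then at a ratio of 753, stayed above the middle of the 10 genes. The 33 higher genes of the pathway list were 18 at a threshold of 4.0, a stricter rule by construction, and between 31 and 34 under the other settings. No paired analysis was possible because each stage has 1 library, and for the same reason no replicate could be left out. Depth limits the D0 values of Mlxipl, of about 1 fragment, and of Thrsp, of about 29.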
